A study of Mus musculus with 12 samples.

Results

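The hearts described here were under pressure overload from transverse aortic constriction (TAC), a ligature that narrows the aorta and raises the pressure against which the left ventricle pumps. Messenger RNA of the left ventricle was compared between 1 month and 1 week of TAC, each against a sham operation of the same time, on 4 of the 12 arrays of a mouse study of cardiac hypertrophy. The 4 arrays were chosen by their labels and are TAC at 1 month, sham at 1 month, TAC at 1 week and sham at 1 week, with 1 array per group. All groups were Balb/c mice of 6 to 8 weeks at treatment, with no transgene or drug named; TAC hearts had a silk ligature tied over a needle that was then withdrawn, and sham hearts had the same surgery without the constriction. The other arrays hold TAC and sham at 1 day, coronary ligation (MI) with its shams at 1 week and 1 month, and angiotensin II (Ang II) with its vehicle control at 1 week. Of these, the other 4 control arrays served to show how far control ventricles differ.

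Pressure overload makes cardiomyocytes enlarge, and with that growth they return to genes of the fetal heart, such as those for natriuretic peptides and slow myosin. Fibroblasts and other non-muscle cells divide and lay down collagen early, and the scar-like matrix stays when division has ended. A chronically loaded ventricle also expresses fewer genes of fatty acid oxidation, the main energy source of the adult heart.

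Values are probe-set signals scaled to a common trimmed mean per array, and ratios are log2 of TAC over sham at the same time, so that 1 is 2-fold. The change of the effect is the 1 month ratio minus the 1 week ratio, negative where the TAC ratio was lower at 1 month. A signal of 25.9 is the median of all probe sets, and signals under 4.54 were raised to that floor. Scaling factors over the 12 arrays ran from 0.872 to 1.09, and the 3' to 5' signal ratio of the Gapdh control probes ran from 0.790 to 0.854. The same ratio for the actin control probes was 1.203 in TAC at 1 month and 1.201 in TAC at 1 week, below the 6 controls (1.252 to 1.299), and its part in the TAC ratios was not tested. All 10 cardiomyocyte markers, which define the labelled tissue, were measured, with summed signals of 79509 in TAC and 98859 in sham at 1 month, and 78853 in TAC and 94493 in sham at 1 week. In bulk tissue, fewer cells of a type and less RNA per cell cannot be told apart. Whether an array holds 1 animal or a pool is not stated.

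A gene was called at a time where its ratio was at least 2-fold, the brighter of the 2 signals was above the median, and the TAC array lay outside the range of all 6 control arrays. By that rule 369 of 11624 genes were called at 1 month (3.17% of all tested), with 222 higher (1.91%) and 147 lower (1.26%), and 349 at 1 week (3.0%), with 253 higher (2.18%) and 96 lower (0.826%). Genes called higher at 1 week had a median ratio of 1.37 at that time and 0.77 at 1 month, and 211 of the 253 had the same sign at 1 month (83.4%). Genes called higher at 1 month had a median of 1.33 there and 0.75 at 1 week, with the same sign in 194 of 222. Genes chosen at 1 time have larger ratios at that time by the choice itself, and the smaller median at the other time was seen in both directions of time.

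Each gene was then placed by its 2 ratios. A gene called at both times in 1 direction, with a change of the effect under 2-fold, was termed persisting. A gene called at 1 month with a change of the effect of at least 2-fold in the same direction was termed growing. A gene called at 1 week with such a change in the opposite direction was termed fading. For both, the difference between the 2 shams had to be under 0.5 of the change and the brightest of the 4 signals above the median. Such a changed effect was found in 338 genes with TAC (2.91%), and in 383 (3.29%) and 510 (4.39%) when control arrays stood in for the TAC arrays. There were 91 persisting genes (0.783% of those tested), of which 73 were higher (0.628%) and 18 lower (0.155%) with TAC. There were 72 growing genes (0.619%), 15 higher at 1 month (0.129%) and 57 lower (0.49%), and 87 fading genes (0.748%), 41 higher at 1 week (0.353%) and 46 lower (0.396%). The control arrays in the place of TAC were the MI-series shams of both times, or the Ang II control at 1 week and the MI-series sham at 1 month. Persisting genes could not occur in either set, because each stand-in was part of the range that the other had to lie outside. The number of persisting genes with TAC therefore has no control count to be set against. The same sets gave 100 (0.86%) and 111 (0.955%) growing genes and 106 (0.912%) and 140 (1.2%) fading genes, under an easier rule, since a control array was held against the range of 5 others. In total, growing and fading genes with TAC were therefore no more numerous than among control ventricles. By direction, 41 fading genes were higher with TAC at 1 week, against 14 (0.12%) and 34 (0.292%) in the control sets. No other direction exceeded both control sets. The 46 fading lower genes stood against 92 (0.791%) and 106 (0.912%). The 15 growing higher genes stood against 13 (0.112%) and 16 (0.138%), and the 57 growing lower genes against 87 (0.748%) and 95 (0.817%). The brightest other probe set, where there was one above the median signal, had the same sign of the 1 month ratio in 31 of 34 persisting higher genes. For the change, it had the same sign in 11 of 17 fading higher genes and in 7 of 15 growing lower genes.

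**Figure D1:**
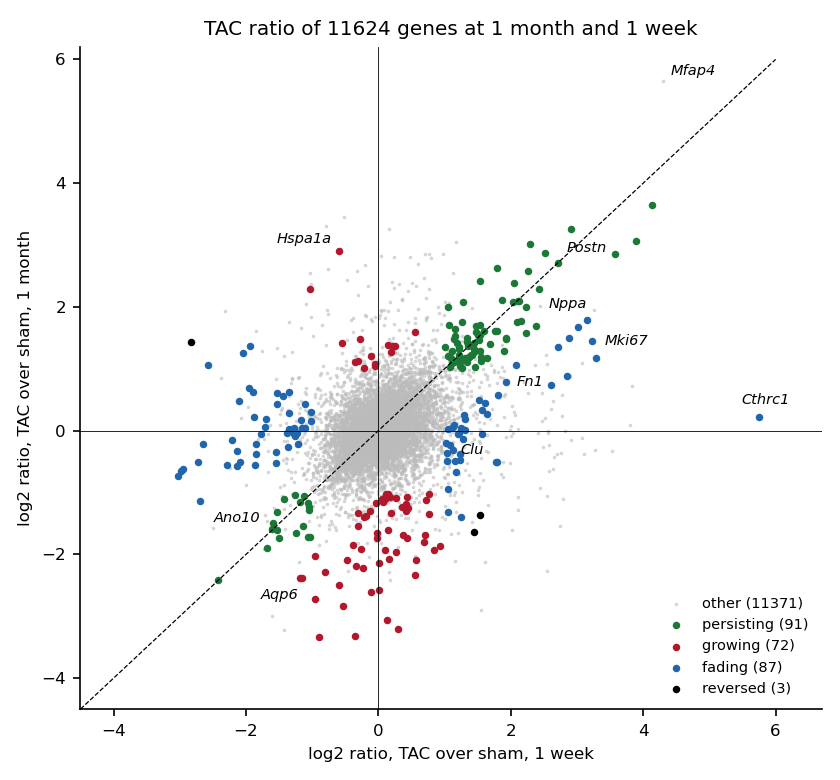
Log2 ratio of TAC over sham at 1 month (vertical) against 1 week (horizontal), 1 point per gene for 11624 genes, with persisting, growing, fading and reversed genes in colour and equal ratios on the dashed line. Persisting genes lie along the diagonal, 73 of 91 on the higher side, and fading genes lie nearer the horizontal axis.

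**Figure D2:**
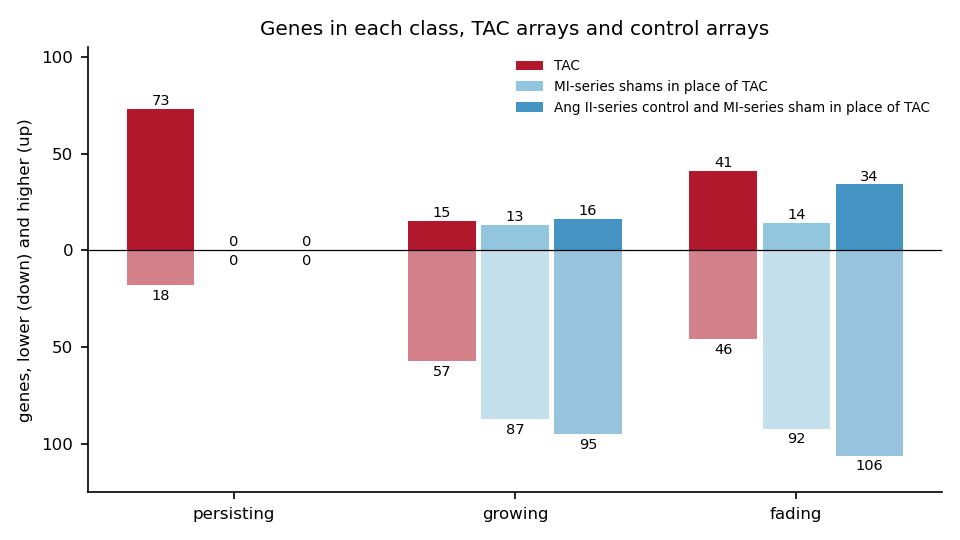
Number of genes in each class, higher as bars above 0 and lower as bars below it, for TAC and for 2 sets of control arrays put in the place of the TAC arrays. Persisting genes number 91 with TAC. The 0 in either control set was fixed by the rule, since each stand-in belonged to the control range of the other. Growing and fading genes are in total more numerous among controls.

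A linear model (limma, with the intensity trend and Benjamini-Hochberg adjustment over 11624 genes) tested both questions against the spread among controls of the same time, 3 arrays at 1 week and 2 at 1 month, with the lone TAC arrays assumed to vary like controls. For the change of the effect, 0 genes passed an adjusted p of 0.05 (0.0%), and 192 had an unadjusted p under 0.05 (1.65% of those tested). For the mean effect of both times, 529 genes passed (4.55%), 227 higher (1.95%) and 302 lower (2.6%) with TAC. Of the 73 persisting higher genes 50 passed in the mean effect and of the 18 persisting lower genes 13 did, a description only, since both measures use the same arrays. Below, rose and fell are used of genes that passed this test of the mean effect, and no single gene's change between 1 week and 1 month passed. The p-values rest on differences among single arrays, which may be technical in part.

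The 8 persisting higher genes with the largest smaller ratio were Adam12, Ltbp2, Comp, Ecrg4, Postn, Nmrk2, Egr2 and Nppa. The brightest of the 4 arrays had a median signal of 201 over persisting genes, 51.0 over growing genes and 59.0 over fading genes. Postn encodes periostin, a matrix protein of activated fibroblasts. Its signal was 3033 in TAC and 463 in sham at 1 month, and 4222 in TAC and 645 in sham at 1 week, with all 6 controls between 428 and 916. Its ratios were equal at 2.71 and 2.71, and it rose by 2.58 ± 0.17 (mean effect ± SE, limma adjusted p = 0.00038). Comp, the cartilage oligomeric matrix protein, had 355 in TAC and 37.2 in sham at 1 month, and 292 in TAC and 38.8 in sham at 1 week. Ltbp2, which binds fibrillin microfibrils, had 240.5 in TAC and 28.7 in sham at 1 month, and 298 in TAC and 20.04 in sham at 1 week. Both TAC arrays lay far above every control for these genes, and both rose, Comp by 2.81 ± 0.24 (adjusted p = 0.00119) and Ltbp2 by 3.35 ± 0.33 (adjusted p = 0.00191). Adam12, a metalloprotease of activated mesenchymal cells, was at 63.8 in TAC and 5.10 in sham at 1 month, and 80.0 in TAC and 4.54 in sham at 1 week, but did not pass the test (adjusted p = 0.17), with controls from 4.54 to 36.5. Ecrg4 (ratios 2.86 at 1 month and 3.58 at 1 week) rose, and so did the early growth response factor Egr2 (ratios 3.02 and 2.30).

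Collagen and matrix genes were higher with TAC at both times. Of the 43 measured, 33 rose and 0 fell, against 1.95% of all genes rising and 2.6% falling. By the 2-fold rule 19 were called higher at 1 month (1.91% of all genes) and 28 at 1 week (2.18%), 15 were persisting (0.783%) and 3 fading (0.748%), and 28 of 43 had a negative change. The list's median ratio was 0.90 at 1 month and 1.16 at 1 week, and the median change was -0.12, less than the largest median difference between control arrays of 1 time (0.19). Col8a1, a short-chain collagen of vessels and remodelling tissue, had 1422 in TAC and 333 in sham at 1 month, and 1818 in TAC and 420.0 in sham at 1 week, and its ratios of 2.09 and 2.11 were almost equal. Col1a1, the main fibrillar collagen chain, had 1456 in TAC and 365 in sham at 1 month, against 2547 in TAC and 545 in sham at 1 week. Its TAC signal was thus lower at 1 month, but so was its sham signal, and the ratio was 2.00 at 1 month and 2.22 at 1 week. Col1a2 (ratios 1.41 and 1.69), Col3a1 (1.18 and 1.09), the proteoglycan biglycan Bgn (1.18 and 1.21), the matrix protein Cilp (2.57 and 2.25) and thrombospondin 4, Thbs4 (1.62 and 1.79), all persisted and rose. Among ligands of the transforming growth factor beta family, Tgfb2 had ratios of 1.69 at 1 month and 1.48 at 1 week and Tgfb3 of 1.23 and 1.21, and both rose, while Tgfb1 was at -0.04 and 0.31 (adjusted p = 0.41). Ccn2, connective tissue growth factor, had ratios of 1.604 and 1.76 and rose.

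Fetal genes persisted in part. Of 27 genes of the fetal and hypertrophy list, 25 were measured, with median ratios of 0.46 at 1 month and 0.52 at 1 week and a median change of -0.03; 10 rose and 2 fell, against 1.95% and 2.6% of all genes. Nppa, the precursor of atrial natriuretic peptide, had 8296 in TAC and 1697 in sham at 1 month, and 8380 in TAC and 1567 in sham at 1 week. Myh7, the slow beta myosin heavy chain, had 3254 in TAC and 1085 in sham at 1 month, and 3820 in TAC and 815 in sham at 1 week. For both genes the TAC arrays were above all controls, which reached 3075 for Nppa and 1356 for Myh7. Nppa rose by 2.19 ± 0.26 (adjusted p = 0.00408) and Myh7 by 2.03 ± 0.21 (adjusted p = 0.00191). Nmrk2, a nicotinamide riboside kinase of stressed muscle, was at 526 in TAC at both times, with shams at 72.1 at 1 month and 92.1 at 1 week, and it rose by 2.50 ± 0.29 (adjusted p = 0.00336).

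Nppb and Acta1 of the same list were not called at either time and did not pass the test. Nppb, the precursor of brain natriuretic peptide, had 7841 in TAC and 7278 in sham at 1 month, and 6873 in TAC and 6251 in sham at 1 week. Skeletal actin Acta1 had 10274 in TAC and 10201 in sham at 1 month, and 10124 in TAC and 9342 in sham at 1 week. Both genes lie near the top of the signal range, where the highest deposited signal was 14795, and whether a difference was compressed there was not tested. Smooth muscle actin Acta2 had ratios of -0.54 and -0.62 and fell, as did cardiac actin Actc1 (-0.24 and -0.32). The counts of the fetal and hypertrophy list depend on the scaling of the arrays. With signals as deposited 16 of its genes rose and 0 fell, and with quantile normalization 12 rose and 0 fell. Fhl1, Enah, Pfkp, Mt2 and Vim, none of them called at 2-fold, each rose, with ratios between 0.46 and 0.93.

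Among lower genes, Ano10, a member of the anoctamin family of channels and scramblases, had 226 in TAC and 678 in sham at 1 month, and 233 in TAC and 709 in sham at 1 week. Both TAC arrays were far below the 6 controls (616 to 931), and it fell, with a mean effect of -1.6 ± 0.11 (SE, adjusted p = 0.00038). Penk, the enkephalin precursor, had 59.6 in TAC and 182 in sham at 1 month, and 49.9 in TAC and 144 in sham at 1 week, and fell (adjusted p = 0.00307). Ift81, of the ciliary transport complex, had 838 in TAC and 2447 in sham at 1 month, and 952 in TAC and 2093 in sham at 1 week. It fell, as did the orphan receptor Gpr22 (ratios -1.15 and -1.19), the ephrin Efnb3 (adjusted p = 0.00575) and the muscle fructose bisphosphatase Fbp2 (-1.71 and -1.07). Rab11fip4 (ratios -2.42 and -2.43), Efemp1 and Lgi1 also fell, whereas Zg16 (adjusted p = 0.25) and Gtpbp6 (adjusted p = 0.079) did not pass.

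**Figure D3:**
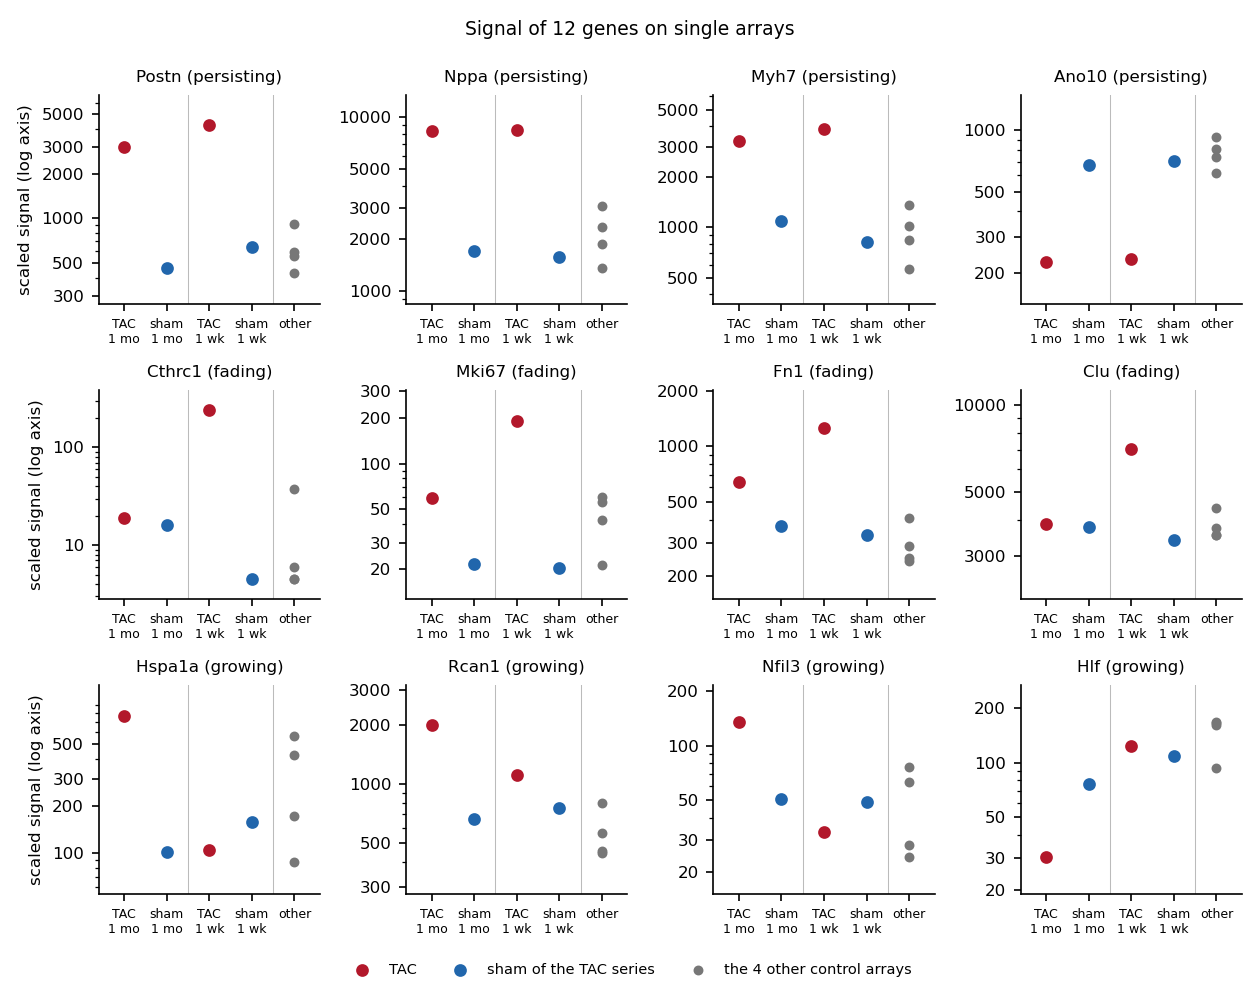
Probe-set signal (log axis) of named genes on each array, with TAC and sham at 1 month, TAC and sham at 1 week, and the other 4 control arrays. Postn, Nppa and Myh7 are high in both TAC arrays, whereas Mki67 is high in the TAC 1 week array, at 192, and within the control range at 1 month, at 59.1.

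Cell division genes had the largest negative median change of the 37 gene lists. The cell cycle and mitosis list had a median TAC ratio of 0.45 at 1 month and 1.20 at 1 week over its 34 measured members of 50, and 29 of 34 had a negative change, with a median of -0.56. Over all genes tested the median change was 0.01, with 51.2% above 0. At 1 month 3 members were called higher (1.91% of all genes were) and at 1 week 17 (2.18%), and 8 were fading (0.748%) and 2 persisting (0.783%). Between the TAC arrays the list's median was -0.77 at 1 month relative to 1 week, while between the shams it was 0.01. Summed over the list, the signal was 3577 in TAC and 2872 in sham at 1 month, and 5127 in TAC and 2930 in sham at 1 week. The other controls ran from 2873 to 3742, so the TAC 1 week array stood above every control and the TAC 1 month array did not. The largest median difference between control arrays of 1 time was 0.53, close to the size of the change, and control arrays in place of TAC gave list medians of -0.18 and -0.07. In limma 0 of the 34 genes passed for the mean effect or for the change, and at an unadjusted p under 0.05 there were 14 for the mean effect and 1, Rrm2, for the change. With signals as deposited, 9 of the 34 passed for the mean effect, all higher. The MI arrays against their own shams gave a median change of -0.70 over the same genes, from 1 pair of arrays per time.

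Mki67, the proliferation antigen Ki-67, had 59.1 in TAC and 21.7 in sham at 1 month, and 192 in TAC and 20.5 in sham at 1 week. Controls reached 59.8, so the gene was within the control range at 1 month and far above it at 1 week, with ratios of 1.44 and 3.23. Prc1, which bundles microtubules of the dividing spindle, had 31.8 in TAC and 14.1 in sham at 1 month, and 95.5 in TAC and 9.76 in sham at 1 week. Anln, an actin-binding protein of the cleavage furrow, had 41.9 in TAC and 22.6 in sham at 1 month, and 86.4 in TAC and 12.04 in sham at 1 week. Kif23, the motor of the central spindle, had 28.1 in TAC and 8.14 in sham at 1 month, and 62.7 in TAC and 7.06 in sham at 1 week. Cdk1, the kinase that drives entry into mitosis, had 42.7 in TAC and 16.8 in sham at 1 month, and 74.0 in TAC and 11.3 in sham at 1 week. For these mitotic genes a smaller excess over sham remained at 1 month, for Prc1 within the control range, which reached 43.6. Mcm2 and Rrm2 of DNA replication were near or below sham. Other members went against that split. Mcm6 of DNA replication had 88.4 in TAC and 41.6 in sham at 1 month, with controls up to 91.1. The mitotic kinase Plk1 had 19.9 in TAC and 25.1 in sham at 1 month. Mcm2, a subunit of the replicative helicase, had 80.2 in TAC and 78.0 in sham at 1 month, and 220 in TAC and 92.8 in sham at 1 week. Rrm2, of ribonucleotide reductase, had 23.4 in TAC and 32.8 in sham at 1 month, and 73.4 in TAC and 32.8 in sham at 1 week. Top2a (ratios 1.03 and 1.46) and the mitotic ubiquitin conjugating enzyme Ube2c (1.55 and 1.51) persisted by the rule. Foxm1, a transcription factor of mitotic genes, was below sham at both times (-0.19 and -0.19). The size of several of these changes depends on the shams. Against the MI-series shams the change was -1.31 for Mki67, -1.15 for Rrm2 and -1.05 for Kif23, but under 2-fold for Cdk1 at -0.74, Anln at -0.44, Mcm2 at -0.38 and Prc1 at -0.31. Racgap1 was fading against its own shams (change -1.16), and the sign reversed to 1.498 against the MI-series shams. The 1 month ratio of Top2a was 0.16 and that of Ube2c 1.06 against those shams, and the median change of the list was -0.50.

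The promoters of 3 fading mitotic genes are shown for 2 elements common in genes of the late cell cycle. The cell cycle homology region is bound by a repressor complex that silences such genes in resting cells, and the CCAAT box is bound by the activator NF-Y. Each is 300 bases of RefSeq GRCm38.p6, from 250 before to 50 after the start, on the minus strand: Mki67 at chr7:135716330-135716629, Cdk1 at chr10:69352863-69353162 and Kif23 at chr9:61946750-61947049. Capitals mark TTTGAA and CCAAT, both searched on both strands, so that CCAAT on the other strand reads ATTGG.
Mki67: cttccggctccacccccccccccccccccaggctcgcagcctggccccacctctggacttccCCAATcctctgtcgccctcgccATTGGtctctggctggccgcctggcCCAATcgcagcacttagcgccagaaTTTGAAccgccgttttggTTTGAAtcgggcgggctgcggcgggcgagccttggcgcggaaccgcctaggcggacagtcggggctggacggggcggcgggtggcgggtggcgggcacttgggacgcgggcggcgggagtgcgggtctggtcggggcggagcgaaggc
Cdk1: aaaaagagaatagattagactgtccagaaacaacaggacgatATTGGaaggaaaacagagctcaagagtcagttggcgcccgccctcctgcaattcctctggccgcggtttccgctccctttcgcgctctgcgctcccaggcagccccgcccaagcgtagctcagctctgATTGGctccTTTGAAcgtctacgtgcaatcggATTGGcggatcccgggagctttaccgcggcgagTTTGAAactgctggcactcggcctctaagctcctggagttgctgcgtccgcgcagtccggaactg
Kif23: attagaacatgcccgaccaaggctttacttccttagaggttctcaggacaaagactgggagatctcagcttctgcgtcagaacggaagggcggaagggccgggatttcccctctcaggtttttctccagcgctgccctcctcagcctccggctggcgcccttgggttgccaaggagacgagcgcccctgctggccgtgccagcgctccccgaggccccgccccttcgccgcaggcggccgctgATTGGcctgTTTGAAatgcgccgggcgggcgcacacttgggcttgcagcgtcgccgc
TTTGAA was present in 7 of the 8 fading cell cycle genes' promoters (87.5%), in 17 of 27 of the list's promoters (63.0%), in 11.5% of those of all tested genes and in 17.9% of the 32851 promoters of the table. CCAAT was in 87.5% of the fading cell cycle genes' promoters and in 38.2% of those of tested genes, but also in 85.2% of the cell cycle list's, 81.8% of the chaperones' and 80.0% of the clock genes' promoters. A match is a run of letters and not a shown binding site.

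**Figure D4:**
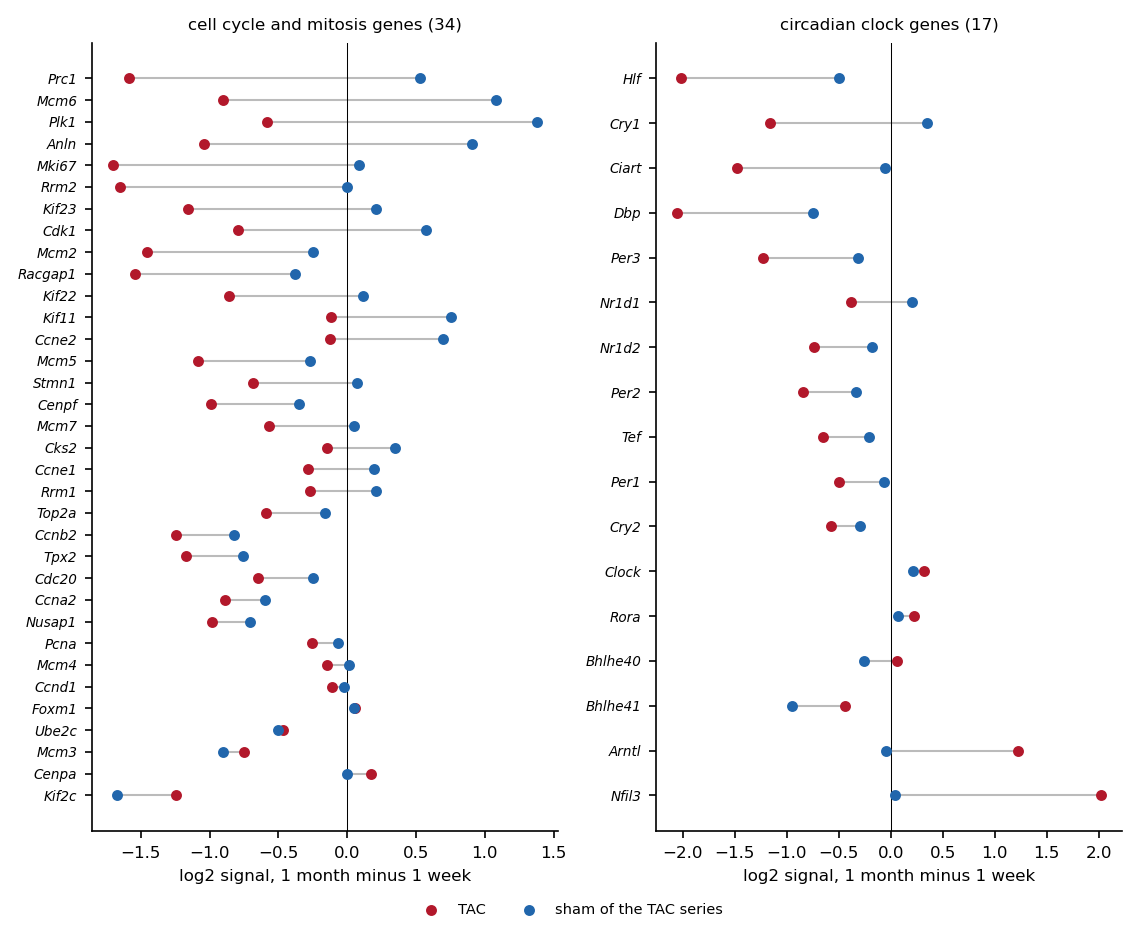
Log2 signal at 1 month minus 1 week (horizontal) for each measured cell cycle gene (left) and clock gene (right), for the TAC arrays and for the TAC-series shams. The TAC point lies left of the sham point in 29 of 34 cell cycle genes and in 11 of 17 clock genes.

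A few matrix genes were fading as well. Cthrc1, a secreted protein of activated fibroblasts, had 18.9 in TAC and 16.2 in sham at 1 month, and 243 in TAC and the floor of 4.54 in sham at 1 week. Its TAC signal at 1 month was within the control range (4.54 to 37.6) and at 1 week far above it. The change of -5.51 depends on the floor and the sham: it was -3.68 with the floor at the 40th percentile, -6.83 at the 10th, and -0.63 against the MI-series shams. Fn1, fibronectin, had 639 in TAC and 369 in sham at 1 month, and 1262 in TAC and 332 in sham at 1 week, with controls from 240.1 to 408. Fmod, the collagen-binding proteoglycan fibromodulin, had 140 in TAC and 43.5 in sham at 1 month, and 298 in TAC and 37.0 in sham at 1 week. Lox, which cross-links collagen, had 134 in TAC and 47.3 in sham at 1 month, and 358 in TAC and 48.6 in sham at 1 week. All 3 stayed above every control at 1 month and rose in the mean effect, Fn1 with adjusted p = 0.005, Fmod with 0.000872 and Lox with 0.0142. Against the MI-series shams the change of Fn1 was -0.22 and that of Lox was 0.10, so the change of these 2 rests on which shams are used. Mfap2, a microfibril protein, had 93.9 in TAC and 88.7 in sham at 1 month, and 166 in TAC and 74.9 in sham at 1 week.

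Clu, the secreted chaperone clusterin, had an unadjusted p of 0.000176 for the change (limma, adjusted p = 1). It had 3855 in TAC and 3771 in sham at 1 month, and 7041 in TAC and 3416 in sham at 1 week, against controls from 3416 to 4409. Only the TAC 1 week array lay outside the controls, and the ratios were 0.03 and 1.04. Cnn1, smooth muscle calponin, had 54.7 in TAC and 32.7 in sham at 1 month, and 108 in TAC and 17.7 in sham at 1 week. With TAC, 69 of the 87 fading genes had the brightest of the 4 arrays below 100. On those same 4 arrays this held for 97 of 106 and 103 of 140 fading genes of the control sets. The share with TAC thus lay between those of the control sets. Of fading genes with the brightest array at 100 or more, 14 were higher and 4 lower at 1 week. Steap4, a metalloreductase, was one of the 4, with 566 in TAC and 586 in sham at 1 month, and 117 in TAC and 398 in sham at 1 week. Most other fading lower genes were dim. Il6ra, the interleukin 6 receptor, had 47.5 in TAC and 34.0 in sham at 1 month, and 7.07 in TAC and 30.4 in sham at 1 week. Zdhhc1, Nrgn, Ntn5, Insyn2a, Spats1, Cacng7 and 4930555G07Rik had changes between 2.33 and 3.63 from signals of at most 76.9, and none passed the test of the mean effect. Pced1b, Pigz, Mid1, Cntrob and Sox9, the other fading higher genes with the largest changes, had ratios between 1.04 and 1.79 at 1 week and were below sham at 1 month. Sox9, a transcription factor of matrix-producing cells, had a change of -2.30 from its brightest probe set and -0.10 from the mean of its probe sets, and Pigz reversed to 1.05 against the MI-series shams.

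Growing effects were fewer among bright genes. With TAC, 62 of the 72 growing genes had the brightest of the 4 arrays below 100. On those same 4 arrays this held for 92 of 100 and 103 of 111 growing genes of the control sets. Of growing genes with the brightest array at 100 or more, 4 were higher and 6 lower with TAC at 1 month. Rcan1, a calcineurin inhibitor that is itself a calcineurin target, had 1988 in TAC and 661 in sham at 1 month, and 1108 in TAC and 753 in sham at 1 week. Both TAC signals were above all controls (443 to 797), the ratios were 1.59 and 0.56, and the gene rose by 1.40 ± 0.21 (adjusted p = 0.00935). Igfbp6, a binding protein of insulin-like growth factors, had 366 in TAC and 142 in sham at 1 month, and 244 in TAC and 205 in sham at 1 week. It rose too (adjusted p = 0.0133), and its sham signals differed between the times, with 142 at 1 month the lowest and 205 at 1 week the highest of all controls.

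Among growing lower genes, Aqp6, an intracellular aquaporin, had 94.3 in TAC and 620 in sham at 1 month, and 291 in TAC and 564 in sham at 1 week. The 6 controls lay between 531 and 800, so the TAC arrays were below them at both times, and lower at 1 month. It fell, with a mean effect of -2.02 ± 0.16 (SE, adjusted p = 0.000669), and its change of -1.76 had an unadjusted p of 0.000558. Ces1d, a carboxylesterase, followed the same order with 139 in TAC and 566 in sham at 1 month, and 290.1 in TAC and 565 in sham at 1 week, and it fell (adjusted p = 0.00154). Aldh9a1, an aldehyde dehydrogenase of carnitine synthesis, had 210.0 in TAC and 450 in sham at 1 month, and 345 in TAC and 332 in sham at 1 week, and did not pass (adjusted p = 0.35). With the mean of its probe sets the change of Aldh9a1 was -0.54, under 2-fold. Gm15408, Cacna1g and Lrp3 were at the floor of 4.54 in TAC at 1 month, with shams between 38.0 and 45.2, and at 22.2 to 49.3 in TAC at 1 week, and Gm15408 and Lrp3 fell (adjusted p = 0.0402 and 0.0245). Primpol, Gm38910, Tlx2, Mtbp and Asf1b were likewise dim, with changes between -2.88 and -2.59.

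Of the 26 chaperones measured 1, Hspa1a, was growing (0.619% of all genes were), and it was among the growing higher genes with the largest change. Hspa1a, an inducible Hsp70 chaperone, had 756 in TAC and 101 in sham at 1 month, and 104 in TAC and 157 in sham at 1 week, with controls from 87.0 to 570.0. Its near-identical copy Hspa1b, whose probes may share transcripts with it, had 1850 in TAC and 169 in sham at 1 month, and 215 in TAC and 309 in sham at 1 week. A control array reached 2551 for Hspa1b, so its value at 1 month was within the control range and it was not called. Hsph1, an Hsp70 exchange factor, had 682 in TAC and 391 in sham at 1 month, and 279 in TAC and 351 in sham at 1 week, also within the controls (351 to 861) at 1 month. Dnajb1 (ratios 0.90 and 0.02) and Dnaja1 (0.57 and 0.05) were higher in TAC at 1 month within the control range, while the constitutive Hsp70 of the endoplasmic reticulum, Hspa5, was at -0.31 and -0.07. Over the chaperones the median change was 0.12, and 0 passed limma's test of the mean effect, with 5 at an unadjusted p under 0.05. The remaining growing higher genes with the largest changes were Vsig2 (ratios 2.30 and -1.03), Nfil3, Brwd3, Snhg17, E130119H09Rik, Coq8b and Tgif2, with signals of at most 136 in TAC at 1 month, and none passed. The change of E130119H09Rik reversed to -0.02 against the MI-series shams.

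The 2 chaperone promoters are shown for the heat shock element, which heat shock factors bind, searched as GAANNTTC on both strands and marked in capitals. They are Hspa1a at chr17:34972107-34972406 and Hsph1 at chr5:149636287-149636586, both on the minus strand of RefSeq GRCm38.p6, and the table holds a second promoter for Hsph1.
Hspa1a: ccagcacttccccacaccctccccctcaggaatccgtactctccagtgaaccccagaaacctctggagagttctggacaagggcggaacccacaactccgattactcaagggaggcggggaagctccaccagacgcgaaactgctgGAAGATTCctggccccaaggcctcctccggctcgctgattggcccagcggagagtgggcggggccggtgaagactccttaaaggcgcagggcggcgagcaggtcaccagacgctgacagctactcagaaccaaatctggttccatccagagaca
Hsph1: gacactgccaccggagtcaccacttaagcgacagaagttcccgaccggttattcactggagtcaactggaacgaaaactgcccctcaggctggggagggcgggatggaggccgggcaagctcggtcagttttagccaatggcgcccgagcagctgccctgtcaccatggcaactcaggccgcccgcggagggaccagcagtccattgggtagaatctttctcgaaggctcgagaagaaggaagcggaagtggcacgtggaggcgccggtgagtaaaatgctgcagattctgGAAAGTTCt
The letters were found in 6 of 22 chaperone promoters (27.3%), in 5.53% of those of tested genes and in 7.86% of all promoters.

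The ratios of clock genes differed between the times. In the circadian clock, the activators of the Clock and Arntl pair switch on repressors and output factors that cycle over the day. Of the 17 clock genes measured of 19, 11 had a negative and 6 a positive change, the median ratio was -0.33 at 1 month and 0.14 at 1 week, and the median change was -0.45. The largest median difference between controls of 1 time was 0.59, above the size of the change, and 0 of the 17 passed limma's test of the mean effect, with 4 at an unadjusted p under 0.05. Dbp, an output factor, had 241 in TAC and 467 in sham at 1 month, and 1002 in TAC and 783 in sham at 1 week. Its controls ranged from 467 to 2051. Hlf, of the same family, had 30.4 in TAC and 76.7 in sham at 1 month, and 124 in TAC and 108 in sham at 1 week. Ciart, a clock repressor, had 58.4 in TAC and 85.3 in sham at 1 month, and 163 in TAC and 88.8 in sham at 1 week, and Cry1, the cryptochrome repressor, had 27.1 in TAC and 57.2 in sham at 1 month, and 60.6 in TAC and 45.0 in sham at 1 week. Arntl and Nfil3 had the largest of the 6 positive changes. The activator Arntl had 147 in TAC and 112 in sham at 1 month, and 63.0 in TAC and 116 in sham at 1 week. Nfil3 is a repressor of the Dbp targets. Nfil3 had 136 in TAC and 50.6 in sham at 1 month, and 33.5 in TAC and 49.2 in sham at 1 week. The hour of harvest is not among the labels, and its part in these differences was not tested.

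The promoters of Ciart and Cry1 are shown for the E-box CACGTG, which the Clock and Arntl pair binds and which reads the same on both strands. They lie at chr3:95882179-95882478 and chr10:85185005-85185304, both on the minus strand of RefSeq GRCm38.p6, with the E-box in capitals.
Ciart: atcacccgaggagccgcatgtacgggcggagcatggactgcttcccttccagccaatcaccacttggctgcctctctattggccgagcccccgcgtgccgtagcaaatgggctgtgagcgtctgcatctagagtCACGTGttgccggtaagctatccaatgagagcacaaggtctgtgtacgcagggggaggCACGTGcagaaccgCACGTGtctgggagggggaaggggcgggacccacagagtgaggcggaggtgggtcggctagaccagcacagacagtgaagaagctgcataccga
Cry1: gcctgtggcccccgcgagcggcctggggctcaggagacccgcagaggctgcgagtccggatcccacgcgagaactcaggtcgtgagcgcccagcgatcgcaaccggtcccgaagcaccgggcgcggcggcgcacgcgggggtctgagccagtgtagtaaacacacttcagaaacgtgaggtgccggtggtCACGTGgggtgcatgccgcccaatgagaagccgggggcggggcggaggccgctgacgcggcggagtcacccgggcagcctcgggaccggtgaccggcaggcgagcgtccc
The E-box was in 5 of 15 clock promoters (33.3%), in 10.2% of those of tested genes and in 7.15% of all promoters.

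Genes of energy metabolism were lower with TAC by a similar amount at both times. Of 36 fatty acid oxidation genes 24 fell and 0 rose, against 2.6% of all genes falling and 1.95% rising, with median ratios of -0.47 at 1 month and -0.47 at 1 week and a median change of -0.05. Acaa2, the mitochondrial thiolase, had 2715 in TAC and 5049 in sham at 1 month, and 2983 in TAC and 4965 in sham at 1 week, below all controls at both times (adjusted p = 0.00191). Hadh, which precedes it in the pathway, had 6679 in TAC and 9704 in sham at 1 month, and 6908 in TAC and 9895 in sham at 1 week (adjusted p = 0.00398). Of 46 genes of oxidative phosphorylation and the citric acid cycle 35 fell, with medians of -0.34 at 1 month and -0.35 at 1 week, and of 24 genes of ketone and branched-chain amino acid use 12 fell (-0.43 and -0.49). Idh2, the mitochondrial isocitrate dehydrogenase, had 3150 in TAC and 5856 in sham at 1 month, and 3540 in TAC and 4838 in sham at 1 week, and fell (adjusted p = 0.00625).

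These decreases depend on the scaling of the arrays. With signals as deposited, which moves the median ratio of all genes to 0.31 at 1 month and 0.21 at 1 week, 9 fatty acid oxidation genes and 1 oxidative phosphorylation gene fell, and with quantile normalization 16 and 3 did. Of the ketone and branched-chain amino acid genes, 2 fell with signals as deposited and 8 with quantile normalization. The fatty acid oxidation median remained below 0 under both, at -0.15 and -0.41 at 1 month. Sarcomere genes had a median ratio of -0.22 at both times and 8 of 23 fell, but the median was 0.09 with signals as deposited and 0.03 with quantile normalization at 1 month, and 0 fell under either. Cardiomyocyte markers had medians of -0.30 at 1 month and -0.27 at 1 week, 8 of 10 fell, and 0 fell under either other scaling. The median change of each of these lists lay between -0.08 and 0.12 under all 3 scalings.

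**Figure D5:**
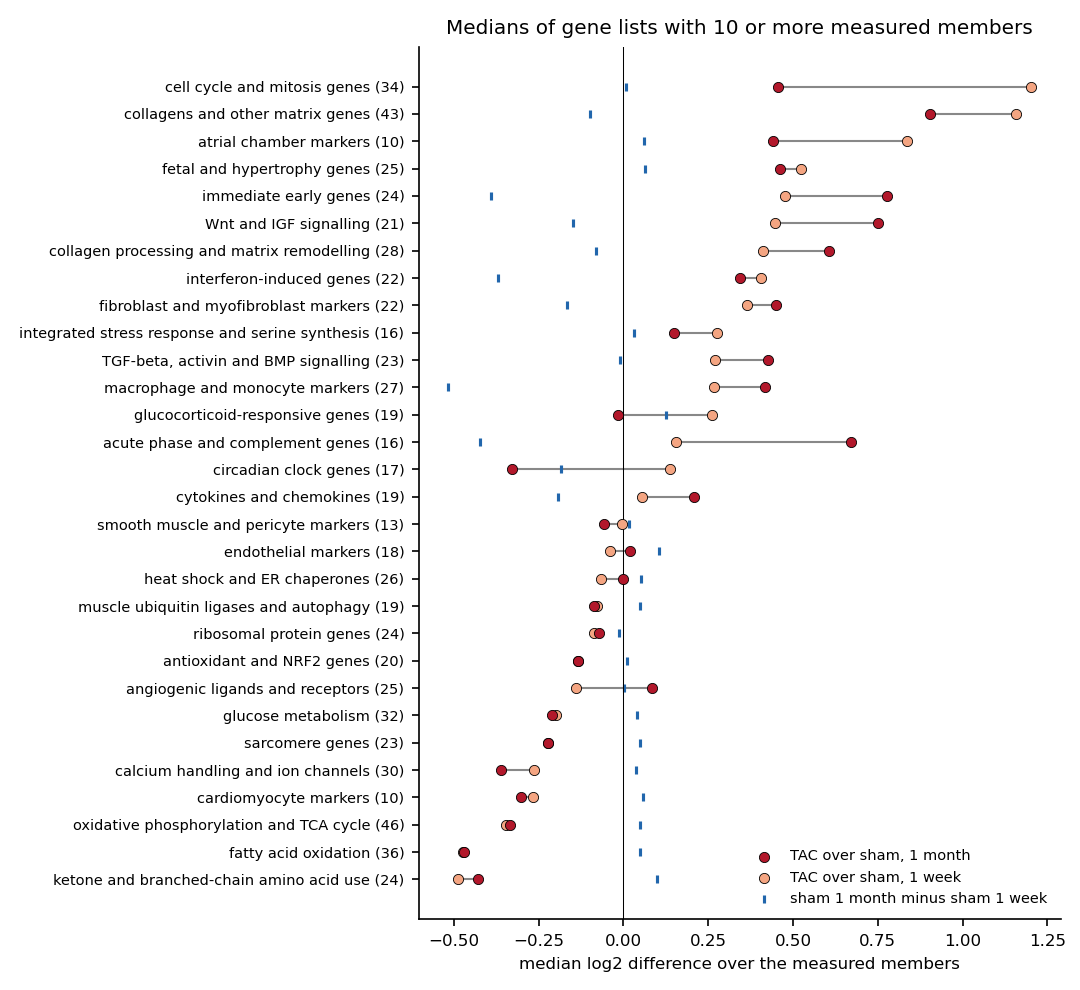
Median log2 ratio of TAC over sham at 1 month and 1 week for each gene list with 10 or more measured members, 1 row per list, with a tick for the median of sham 1 month minus sham 1 week. Matrix lists stay to the right of 0 and energy lists to the left at both times, and the cell cycle list lies at 0.45 at 1 month and at 1.20 at 1 week.

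In several immune lists the shams differed between the times. Neutrophil markers, 5 measured, had a median change of 1.55, and the median difference between the shams was -1.34. Their summed signal was 262 in TAC and 286 in sham at 1 month, and 213 in TAC and 411 in sham at 1 week, and the sham at 1 day had 666. Macrophage and monocyte markers had a median change of 0.11 with summed signals of 10622 in TAC and 8743 in sham at 1 month, and 12743 in TAC and 11976 in sham at 1 week, and the sham difference was -0.52. Acute phase genes had a median change of 0.50 with a sham difference of -0.42, and immediate early genes 0.33 with -0.39. Fos, the immediate early factor, shows the pattern with 180 in TAC and 35.8 in sham at 1 month, and 210 in TAC and 233 in sham at 1 week: its TAC signals were near each other and its sham signals were not. The median changes of the neutrophil, acute phase and immediate early lists cannot be told apart from the difference between the 2 sham arrays. Of the acute phase genes, Il6ra was fading and the complement component C2 growing (change -1.59), with sham differences of 0.16 and 0.09, and the sign for C2 reversed to 0.24 with the mean of its probe sets.

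In 129 genes called at 1 week, 1 month or both, the effect changed by 2-fold with a sham difference too large for the rule. Genes called at neither time are not in that number. Whether called or not, 819 genes had a changed effect with no limit on the sham difference, against 338 with it. Mfap4, a microfibril protein, had 227 in TAC and the floor of 4.54 in sham at 1 month, and 439 in TAC and 22.4 in sham at 1 week. It rose by 4.88 ± 0.35 (adjusted p = 0.00038), and although its ratio was higher at 1 month (5.64 and 4.29), its TAC signal was lower there. Tenascin C, Tnc, had 55.8 in TAC and 30.4 in sham at 1 month, and 104 in TAC and 14.01 in sham at 1 week, and it rose (adjusted p = 0.0301). Cd248, a marker of stromal cells, had 80.1 in TAC and 15.4 in sham at 1 month, and 87.6 in TAC and 70.4 in sham at 1 week. Fibroblast markers as a list had summed signals of 24217 in TAC and 19321 in sham at 1 month, and 25813 in TAC and 20707 in sham at 1 week, and a median change of 0.05. The sums, which bright members dominate, were above their shams by a similar amount at both times, while members differed: changes ran from -5.51 for Cthrc1 to 2.06 for Cd248, and Cthrc1 and Lox were fading. The part of cell numbers in these values was not tested.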

How the data were processed

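Total RNA of left ventricles (5 µg per the labels) was hybridised to 1-colour Affymetrix arrays, 12 in all and 1 per group. The deposited values are intensity, a linear signal for each of 45101 probe sets. The submitters' processing notes name GCOS, and the signal algorithm is not given in the sources used here. Precision is limited by the number of arrays. Shams were paired with TAC by the letters of the sample titles.

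From these values, each array was scaled to a common 2% trimmed mean, floored at the 20th percentile (4.54) and taken to log2. Of the probe sets, 34958 had 1 gene symbol in the platform annotation, 932 had several and 9211 were not listed, and 34754 matched RefSeq by gene identifier, with 0 symbols differing. A gene took its brightest probe set and was tested with a mean above the 40th percentile (18.1), which left 11624 genes. The floor held 0.183% of their values. The linear models used limma 3.58.1 under R 4.3.3 (intensity trend, Benjamini-Hochberg), with controls of a time as 1 group and 3 residual degrees of freedom, and were tested on simulated data. The test of the mean effect was added after the data were seen.

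Named genes were the 8 with the largest change in each direction among growing and fading genes, the 8 with the largest smaller ratio in each direction among persisting genes, the 3 largest changes per list and all fetal genes, where they bear on a list described. Other genes named were chosen after their values were seen. The members and the 37 gene lists were chosen with earlier results of these data known. Alternatives covered scaling, floor, probe set choice, dim filter, thresholds, shams and the model.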

Additional observations from a re-analysis of the deposited data

Results flagged for a closer look

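In 3 genes the 1 month and 1 week arrays moved in opposite directions, with 1 array per group. Each array differed by more than 2-fold from its sham and lay outside all controls. With the MI-series shams in place of TAC there were also 3 such genes. With the Ang II control and the MI-series sham there were 5, both under the easier rule of the control sets. Such genes were thus no more numerous with TAC than among control ventricles. Slc34a2, a phosphate transporter, had 34.7 in TAC and 12.9 in sham at 1 month, and the floor of 4.54 in TAC and 32.2 in sham at 1 week, a change of 4.25 (limma unadjusted p = 0.00705). Lgals2, a galectin, had 15.1 in TAC and 47.2 in sham at 1 month, and 47.6 in TAC and 17.5 in sham at 1 week, a change of -3.08 (unadjusted p = 0.0329). Tnfaip8l2, a regulator of immune cells, had 18.3 in TAC and 47.1 in sham at 1 month, and 73.4 in TAC and 25.2 in sham at 1 week, a change of -2.90 (unadjusted p = 0.00115). None of the 3 passed limma's test of the change after adjustment over all genes (adjusted p = 1 for each). All of these signals are below 100, in the range where control arrays in place of TAC gave as many changes as TAC did.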

How the results depend on the processing

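No paired analysis was possible because each group holds 1 array. The main counts were 369 genes called at 1 month, 349 at 1 week, 338 with a changed effect, 91 persisting, 72 growing and 87 fading. With signals as deposited the counts were 669 at 1 month, 568 at 1 week and 158 persisting, and 88.8% of calls at 1 month and 90.3% at 1 week were higher, against 60.2% and 72.5%, because the median ratio of all genes then lay at 0.31 and 0.21. With no filter on dim genes they were 525 at 1 week, 589 changed, 120 growing and 160 fading. A 1.5-fold threshold gave 1045 at 1 month, 1070 at 1 week, 898 changed, 317 persisting, 192 growing and 264 fading. With the brighter signal above 100, a limit chosen after seeing the data, they were 137, 139, 48, 58, 9 and 18. Persisting genes numbered 144 against the MI-series shams, also added after seeing the data, and 819 genes had a changed effect with no limit on the sham difference. Of the main genes, 57 of 91 persisting, 30 of 72 growing and 29 of 87 fading were called again with those shams. The mean effect passed in 965 genes with signals as deposited, 308 with the mean of probe sets, 275 with no dim filter and 11 with no intensity trend, against 529. The change passed in 117 genes with no dim filter and in 0 under the other alternatives. Among genes called persisting or with a changed effect, the sign reversed for C2 (0.24, mean of probe sets). Against the MI-series shams it reversed for E130119H09Rik (-0.0202), Pigz (1.05), Lox (0.10) and Racgap1 (1.498). Signs of genes outside these calls changed too and were not counted as reversed. For example, the change of Fos was 2.48 against its own shams and -0.67 against the MI-series shams. That of Mfap4 was 1.35 in the main setting and -0.48 once low signals were raised to the 40th percentile. The cause was not tested. Each of the values not counted as reversed was held against a multiple of its control standard deviation, a limit wider than the control spread itself. Each gene or list was counted once per alternative. Of these single-gene values 1592 moved by less than that limit and 113 by more, and of the list values 290 and 6. The MI-series shams alone accounted for 60 of the 113.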
